A study of Mus musculus with 22 samples.

Results

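Inguinal subcutaneous fat (ingWAT) of mice with Gipr-/- bone marrow was compared with the same depot of mice with wild-type (WT) marrow. The arrays were chosen by the depot and marrow in their titles, which gave 3 Gipr-/- arrays and 4 WT arrays, 7 of the 22 arrays of the series. Total RNA of each sample was measured on a 1-colour Affymetrix whole-transcript array, and the study asked about the receptor of the gut hormone GIP in myeloid cells during obesity.

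In the Gipr-/- group, WT recipients had received marrow without Gipr, the gene of the GIP receptor. In the WT group, WT recipients had received WT marrow. Every recipient cell that does not come from marrow, the adipocyte included, therefore carried Gipr in both groups. The labels give male C57BL/6J mice throughout. Both groups had 6 weeks for the marrow to take and then 14 weeks of a diet with 60% of its calories from fat, and no lean animals are analysed here. Neither the age at transplantation, the conditioning of the recipients nor the share of donor cells is stated in the sources used here. A further 3 inguinal arrays of mice with Gipr-/-S100a9-/- marrow (double knockout, DKO; recipient not given in the sources used here) entered the fit to estimate the spread, and 4 Gipr-/- and 4 WT arrays of epididymal fat (epiWAT) served to compare the depots. Whether every array stands for its own mouse is not said in the labels, and the p-values cover the spread between arrays, which may in part be technical.

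GIP is an incretin: it is released by the gut after a meal and raises insulin secretion through its receptor on pancreatic beta cells. The receptor has also been described in adipose tissue and in myeloid cells. Obese white fat takes in marrow-derived macrophages and lays down collagen and other matrix around enlarged adipocytes. The inguinal pad lies between skin and leg muscle and holds a lymph node, so a dissected pad can carry pieces of each.

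Values are given on the log2 scale, as read from the authors' deposited table. Its log base and normalization are not stated in the sources used here, so every fold rests on that reading. Array medians were 6.11 to 6.17 with Gipr-/- marrow and 6.16 to 6.26 with WT marrow. Pairs of arrays correlated at 0.977 to 0.983 within the Gipr-/- group, at 0.949 to 0.972 within the WT group and at 0.95 to 0.976 between them, across genes, and 0 pairs were identical. Adipoq, the gene of the adipocyte hormone adiponectin, read 19.33, 19.21 and 19.37 with Gipr-/- marrow, against 19.25, 18.96, 18.64 and 19.2 with WT marrow. All 7 samples thus carried the defining adipocyte gene at a high level. Epididymis genes, which would mark the other depot, averaged 4.06 to 4.12 with Gipr-/- marrow, against 3.93 to 4.13 on WT arrays 1 to 3 and 5.07 on WT array 4. The number of arrays limits the precision of every value below.

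Skeletal muscle genes differed widely between arrays, which bears on the comparison of marrow. The mean level of 66 measured muscle genes was 5.94, 6.65 and 7.28 on the 3 Gipr-/- arrays, against 9.11, 10.58, 11.96 and 5.80 on WT arrays 1 to 4. WT arrays 1, 2 and 3 were high and WT array 4 was low, just below the lowest Gipr-/- array. Counted another way, 2, 2 and 5 muscle genes lay above a log2 value of 12 with Gipr-/- marrow, against 12, 28, 34 and 2 with WT marrow.

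Myh4, the myosin heavy chain of fast fibres, shows the range: it read 8.61, 9.32 and 13.87 with Gipr-/- marrow, against 17.85, 19.03, 19.56 and 4.73 with WT marrow. Pvalb, the calcium buffer parvalbumin of fast fibres, read 7.04, 7.52 and 9.29 with Gipr-/- marrow, against 14.74, 16.69, 19.14 and 5.44 with WT marrow. For both genes the WT group held the highest values and the lowest one. The same order held for Acta1, skeletal actin, at 9.08, 11.49 and 13.5 with Gipr-/- marrow and 16.17, 17.85, 18.91 and 6.77 with WT marrow, and for Ckm, muscle creatine kinase, at 8.57, 8.88 and 10.27 with Gipr-/- marrow and 11.71, 14.61, 17.16 and 7.58 with WT marrow.

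**Figure D1:**
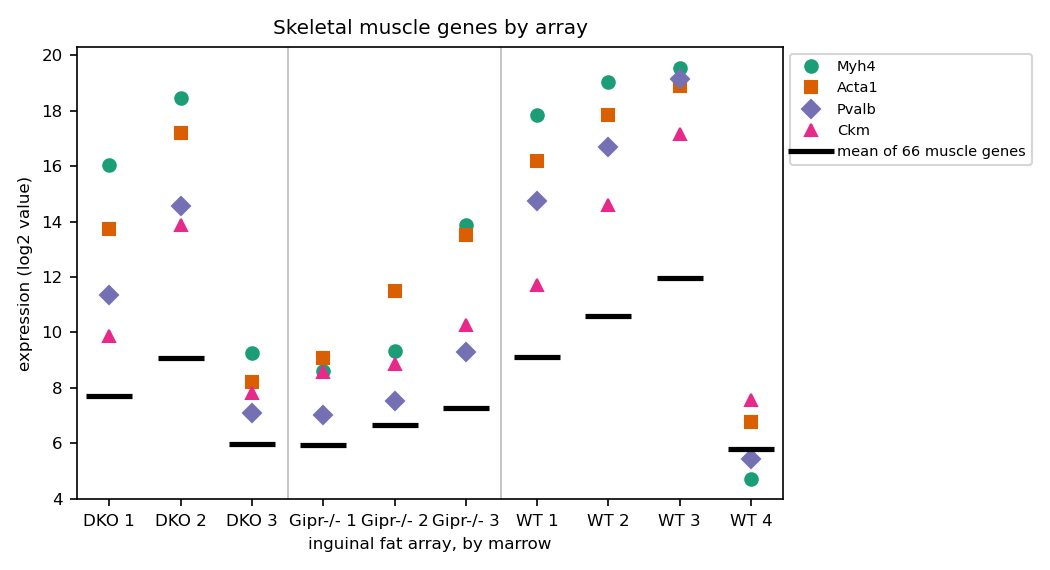
Log2 values of 4 skeletal muscle genes (symbols) and the mean of 66 muscle genes (black bars) on each of the 10 inguinal arrays, grouped by marrow along the horizontal axis. WT arrays 1 to 3 have muscle means of 9.11 to 11.96, while WT array 4 (5.80) lies just below the Gipr-/- arrays (5.94 to 7.28).

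None of the 60 tested muscle genes passed the threshold of 0.05 on the adjusted p of limma, and 34 had an unadjusted p under 0.05, all lower. Over all genes tested, 5.1% were lower and 9.94% higher at that unadjusted p. The median difference of the muscle genes, Gipr-/- minus WT marrow, was −3.08, against 0.03 over all genes tested, and 57 of the 60 were negative. Against WT array 4 alone the median was 0.52. Among the 60, 2 had Gipr-/- arrays all below the WT arrays, no larger a share than the 5.15% of all genes. Xirp1, an actin-binding gene of muscle attachment sites, read 5.89, 5.74 and 6.04 with Gipr-/- marrow and 7.17, 7.8, 7.83 and 7.13 with WT marrow (difference −1.59 ± 0.35 SE, adjusted p = 0.0699). Mybpc2, the fast myosin-binding protein C, read 4.27, 4.28 and 4.33 with Gipr-/- marrow and 7.75, 8.58, 13.08 and 5.24 with WT marrow (adjusted p = 0.164).

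Other neighbouring tissues showed in single arrays. Skin and hair genes averaged 4.33, 4.45 and 6.86 with Gipr-/- marrow, against 7.66, 9.59, 4.91 and 4.53 with WT marrow, so Gipr-/- array 3 and WT arrays 1 and 2 were high. Krt5, a basal keratin, read 2.86, 3.58 and 8.34 with Gipr-/- marrow and 9.69, 11.35, 5.58 and 3.96 with WT marrow. Genes of B and plasma cells, which would mark the lymph node, averaged 4.67 to 5.0 with Gipr-/- marrow and 4.84 to 5.16 with WT marrow, but 9.32 and 9.13 on DKO arrays 1 and 3. WT array 4, low in muscle genes, stood apart in others. Of 8 listed red blood cell genes only 2 were measured, Alas2 and Slc4a1. They averaged 9.82 on WT array 4, against 6.74 to 7.40 with Gipr-/- marrow and 7.08 to 7.65 on WT arrays 1 to 3. Alas2, which starts haem synthesis in red cell precursors, read 6.94, 6.33 and 6.88 with Gipr-/- marrow and 7.71, 7.66, 7.37 and 11.25 with WT marrow (adjusted p = 0.297). Slc4a1 stood out less, at 7.86, 7.15 and 6.94 with Gipr-/- marrow and 7.6, 6.76, 6.8 and 8.39 with WT marrow (limma, adjusted p = 0.965). The epididymis gene Lcn5 read 5.39, 4.32 and 5.18 with Gipr-/- marrow and 5.27, 4.83, 4.43 and 7.88 with WT marrow, and Gpx5 reached 6.08 on WT array 4, against 3.85 to 4.54 with Gipr-/- marrow and 4.2 to 4.87 on WT arrays 1 to 3. The part of muscle in any difference below was examined only by the values beside it and by a fit, given below, with the muscle score as a covariate. That score is the mean of the muscle genes on each array. The part of skin, red cells, epididymis or lymph node was not tested beyond the values given beside each difference.

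The deleted gene itself was dim and did not separate the groups. Gipr read 4.66, 5.66 and 4.99 with Gipr-/- marrow, against 5.31, 4.36, 5.51 and 4.86 with WT marrow (difference 0.09 ± 0.37 SE, adjusted p = 0.946). Since the recipients carried Gipr, its level in whole fat does not check the label. S100a8 and S100a9 encode the paired calcium-binding alarmins of neutrophils and monocytes that the study's title names. S100a8 read 6.29, 6.81 and 4.6 with Gipr-/- marrow, against 5.65, 6.49, 4.65 and 5.6 with WT marrow (adjusted p = 0.85). S100a9 read 6.98, 5.35 and 6.16 with Gipr-/- marrow, against 5.12, 5.82, 6.45 and 5.23 with WT marrow (adjusted p = 0.678). The groups overlapped for all 3 genes. S100a8 and S100a9 were dim as well. With DKO marrow, which lacks S100a9, S100a9 still read 6.35, 6.18 and 4.94 (DKO minus WT 0.17). Its reading thus did not follow the loss of the gene from marrow, and its lack of a difference says little. Of 10 tested neutrophil genes 0 passed the adjusted threshold and 0 had an unadjusted p under 0.05 in limma, with a median difference of 0.13. Among 15 genes of the S100 family and the alarmin receptors 0 passed. At an unadjusted p under 0.05, 2 were higher and 3 were lower, beside 9.94% and 5.1% of all genes. S100a1, a member abundant in muscle, had the smallest p of these, at 10.31, 9.08 and 10.12 with Gipr-/- marrow and 12.04, 11.5, 12.13 and 10.87 with WT marrow (adjusted p = 0.06).

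Over all genes, Gipr-/- and WT arrays did not overlap for 15.4% (10.2% higher, 5.15% lower). Of 14502 genes tested, 34 passed an adjusted p of 0.05 in limma (0.234%). With Gipr-/- marrow 30 genes were higher (0.207%) and 4 were lower (0.0276%). Among the genes past the threshold, Oxtr, Srgn and Ccn2 had the largest differences. Of the 34 genes 2 belong to any of the 38 gene lists, and the order in which the others are described was chosen after their values were seen. As whole fat was measured, a change in the number of cells of a type and a change of RNA per cell cannot be told apart.

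The number of calls depended on single arrays. With Gipr-/- array 1, Gipr-/- array 2 or WT array 1 left out, or with the muscle score as a covariate, 0 genes passed (lowest adjusted p 0.0636 to 0.0736); 1344 to 1951 genes still had an unadjusted p under 0.05. Without WT array 2 there were 2 genes, and without WT array 3 or without DKO array 3 there was 1. Without WT array 4 there were 87, and without DKO array 2 there were 274. After quantile normalization 3 genes passed, of which 1 was higher and 2 were lower. In each of these fits all 34 genes had an unadjusted p under 0.05. They were chosen by low p on the same arrays, so this is no sign of stability. As their groups do not overlap on those arrays, leaving arrays out could not turn a direction.

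Set against WT array 4 alone, the array low in muscle, the 30 higher genes differed by a median of 1.52 log2 units (0.99 to 3.29). The 4 lower genes differed by −1.57 to −1.36 there. These signs were fixed by the choice of the genes, whose groups do not overlap, so the sizes are a description. The mean level of the 30 genes was 12.92, 13.2 and 12.86 on the Gipr-/- arrays, against 11.11, 11.21, 11.07 and 11.39 on the WT arrays. The array titles also carry a number whose meaning is not given: 91, 92 and 71 for Gipr-/- arrays 1 to 3, and 64, 65, 66 and 87 for WT arrays 1 to 4. In the lower range the median of the 30 genes was 1.45 (1 Gipr-/- array against 3 WT arrays), and in the higher range it was 1.57 (2 Gipr-/- arrays against 1 WT array). Since the groups of all 34 genes do not overlap, the sign within each range was fixed by their choice. With the range as a block 0 genes passed (lowest adjusted p 0.0882, 1724 genes at an unadjusted p under 0.05).

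**Figure D2:**
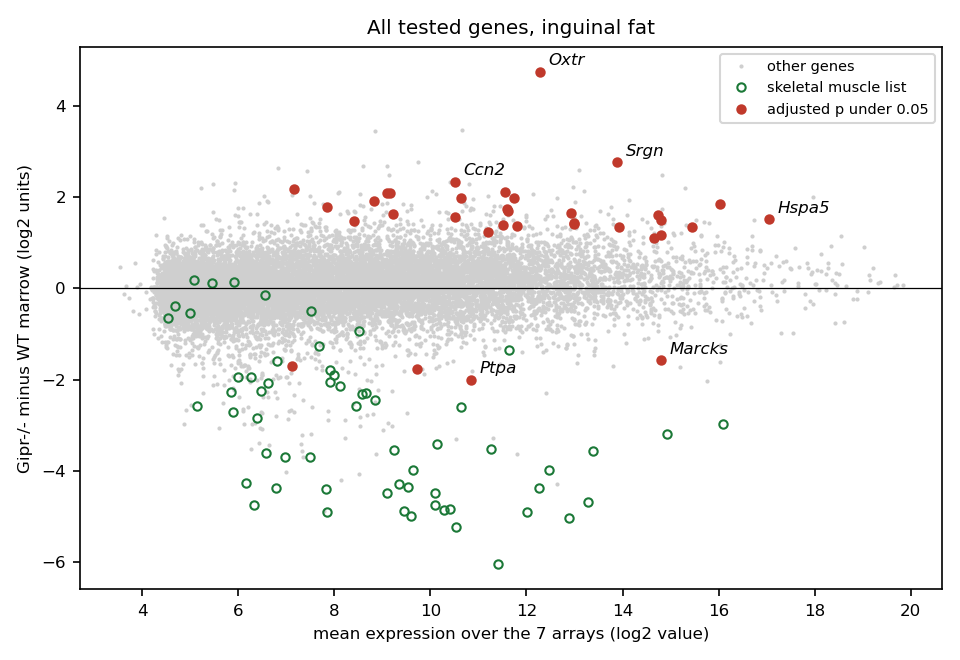
Difference between Gipr-/- and WT marrow in log2 units (vertical axis) against the mean log2 value over the 7 arrays (horizontal axis), one point per tested gene. The 34 genes past the threshold are filled red points, from 4.75 for Oxtr to −2.0 for Ptpa, and the open green circles of the muscle lists spread downwards without passing.

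Oxtr, the oxytocin receptor, is a G protein-coupled receptor best known in uterus, mammary gland and brain and also present on adipocytes. It read 14.3, 16.59 and 14.12 with Gipr-/- marrow, against 9.03, 11.05, 9.23 and 11.71 with WT marrow. The groups did not overlap, although each spread over more than 2 log2 units. The difference was 4.75 ± 0.76 (SE), a fold of 26.9, with an adjusted p of 0.0307. Against WT array 4 it was 3.29.

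Srgn, serglycin, is the core protein of granule proteoglycans in blood cells and is also made by endothelium. It read 15.44, 15.17 and 15.8 with Gipr-/- marrow, against 12.55, 12.04, 12.87 and 13.34 with WT marrow. Every Gipr-/- array lay more than 1 log2 unit above every WT array. The fold was 6.81 and the adjusted p of 0.012 was the lowest of all genes. In the general macrophage list 0 of 19 tested genes passed, with a median of 0.19. Fcgr3, an Fc receptor, had the smallest p in that list, at 13.1, 13.17 and 14.09 with Gipr-/- marrow and 11.46, 11.9, 11.33 and 12.76 with WT marrow (adjusted p = 0.167).

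**Figure D3:**
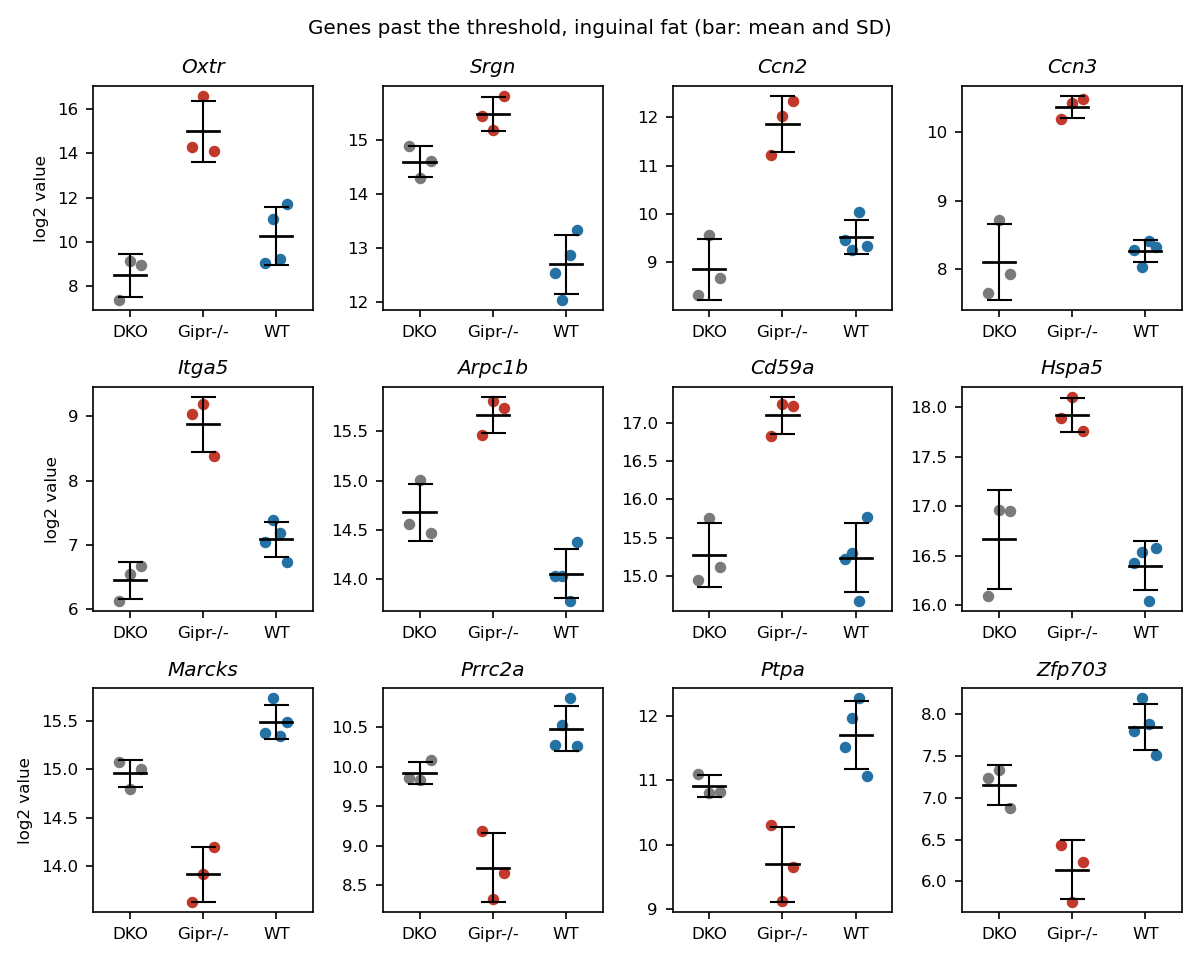
Log2 values of 12 genes past the threshold on each inguinal array (points) by marrow, with the group mean and SD (bars); each panel has its own vertical range. In all 12 panels the 3 Gipr-/- points lie apart from the 4 WT points, above them for 8 genes from Oxtr to Hspa5 and below them for Marcks, Prrc2a, Ptpa and Zfp703.

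The CCN proteins are secreted matricellular regulators that bind integrins and growth factors. Ccn2, connective tissue growth factor, read 11.21, 12.02 and 12.33 with Gipr-/- marrow, against 9.46, 9.25, 10.03 and 9.33 with WT marrow. Ccn3 read 10.18, 10.42 and 10.48 with Gipr-/- marrow, against 8.28, 8.04, 8.42 and 8.32 with WT marrow. Both groups were narrow and far apart for Ccn3, and for Ccn2 the gap exceeded 1 log2 unit. Ccn2 was 5.05-fold higher (adjusted p = 0.0307) and Ccn3 4.27-fold higher (adjusted p = 0.0287).

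After these values were seen, the rest of the family was looked up. Of 6 measured members 2 were left out for low values. The 4 tested had every Gipr-/- array above every WT array, a state that 10.2% of all genes share. Their median difference was 2.21, or 2.28 against WT array 4. Both figures include Ccn2 and Ccn3, by which the family was picked, so only Ccn1 and Ccn5 add to them. Ccn1, an immediate-early member, read 16.76, 16.53 and 15.44 with Gipr-/- marrow, against 13.22, 15.2, 13.31 and 13.35 with WT marrow, and missed the threshold (adjusted p = 0.0561). Ccn5 differed by 1.31 ± 0.40 (SE) with an adjusted p of 0.153.

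Among cell-surface and matrix genes, Itga5, the alpha chain of the fibronectin receptor, read 9.04, 9.19 and 8.39 with Gipr-/- marrow and 7.05, 7.38, 7.18 and 6.73 with WT marrow. It was 3.45-fold higher (adjusted p = 0.0323). Of 16 tested integrin alpha chains, looked up afterwards, Itga5 alone passed, and Itgav (1.04 ± 0.25 SE, adjusted p = 0.0842) was next by p. Mfap5, a microfibril glycoprotein of elastic fibres, rose 3.97-fold. Adam12, a membrane metalloprotease-disintegrin, rose 4.25-fold and read 10.19 to 10.4 with Gipr-/- marrow, against 7.86 to 8.9 with WT marrow. Prss23, a secreted serine protease, rose 4.35-fold, and Dcbld2, a neuropilin-like membrane protein, rose 3.76-fold. Cd59a, an anchored inhibitor of the complement attack complex, was bright, at 16.82, 17.24 and 17.22 with Gipr-/- marrow and 15.22, 15.3, 14.67 and 15.77 with WT marrow. Adjusted p-values of these genes ran from 0.0307 to 0.0406.

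The extracellular matrix and fibrosis list held 25 tested genes. Only Ccn2 passed the threshold over all genes. Without overlap, 9 members were higher and 1 was lower, beside 10.2% and 5.15% of all genes, and the list median was 0.46 against 0.03. Next by p came Lox, lysyl oxidase, which cross-links collagen, at 13.11, 13.62 and 13.32 with Gipr-/- marrow and 12.25, 11.91, 12.38 and 12.24 with WT marrow (adjusted p = 0.0528). Postn, periostin, read 13.51, 14.85 and 14.35 with Gipr-/- marrow and 11.87, 11.64, 11.82 and 12.73 with WT marrow (adjusted p = 0.0561). Both genes had separate groups and missed the threshold. Thbs1, thrombospondin 1, read 14.87, 15.25 and 13.57 with Gipr-/- marrow and 11.2, 13.22, 11.37 and 12.11 with WT marrow (adjusted p = 0.0566). Of the fibrillar collagens, named after their values were seen, Col1a1 differed by −0.19 (adjusted p = 0.841) and Col3a1 by −0.45 with all Gipr-/- arrays below all WT arrays (adjusted p = 0.468). Against WT array 4 the list median was 0.52.

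A further 4 of the 30 genes encode actin-binding proteins; they were put together after their values were seen, and Marcks, which also binds actin, was lower. Arpc1b, a subunit of the Arp2/3 complex that branches actin filaments, read 15.46, 15.8 and 15.73 with Gipr-/- marrow, against 14.03, 14.04, 13.78 and 14.38 with WT marrow (adjusted p = 0.0287). Actn4, the non-muscle alpha-actinin, was 2.53-fold higher, Tpm4, a non-muscle tropomyosin, 2.71-fold, and Coro1c, a coronin, 2.97-fold. For all 4 genes the groups were separate. Against WT array 4 they differed by 1.28, 1.48, 1.33 and 1.89 log2 units, in the order named. Of 7 tested Arp2/3 subunits, Arpc1b passed and the median difference was 0.35.

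Hspa5, the chaperone BiP of the endoplasmic reticulum, read 17.89, 18.1 and 17.76 with Gipr-/- marrow, against 16.43, 16.54, 16.04 and 16.58 with WT marrow. The gap between the groups was more than 1 log2 unit at this bright level. Hspa5 rose 2.87-fold (adjusted p = 0.0307). In the unfolded protein and integrated stress list it was the one gene of 17 past the threshold. In 5 of the 17 the groups were separate with Gipr-/- marrow higher, beside 10.2% of all genes, and the list median was 0.62 (0.52 against WT array 4).

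Creld2, a secreted stress-induced protein, read 9.04, 9.4 and 9.22 with Gipr-/- marrow, against 8.0, 7.78, 7.53 and 6.98 with WT marrow (adjusted p = 0.0561). Xbp1, the transcription factor activated by splicing in this response, differed by 0.83 ± 0.23 (SE, adjusted p = 0.128), and Calr, the chaperone calreticulin, by 0.87 ± 0.26 (SE, adjusted p = 0.144). Genes of the integrated stress arm, named after their values were seen, were Atf4 (−0.77), Ddit3 (−0.10), Trib3 (0.13), Chac1 (−0.63) and Asns (−0.38), with adjusted p-values from 0.232 to 0.929.

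The element that the unfolded protein response uses in such promoters, ERSE, was searched on both strands of RefSeq promoters (GRCm38.p6, 250 bases before to 50 after each start) as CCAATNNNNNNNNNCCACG, a search chosen after the values of Hspa5 were seen. It lay in 39 of 32851 promoters (0.119%), or 37 of 27025 genes (0.137%), and in 5 of the 17 listed stress genes, for all of which a promoter was given. These 5 promoters are shown because they let the called gene be read beside 4 genes of its list with the same letters. Capitals mark the fixed letters of the element, or of its reverse complement where it lies on the other strand; each sequence runs 5′ to 3′ on the strand of its gene. For Hspa5 the whole upstream window is given (chr2:34771840-34772089, plus strand). The others are the element with its flanks, for Hsp90b1 (chr10:86705518-86705671, minus strand), Calr (chr8:84847060-84847108, minus strand), Canx (chr11:50325785-50325833, minus strand) and Creld2 (chr15:88819505-88819553, plus strand).
Hspa5: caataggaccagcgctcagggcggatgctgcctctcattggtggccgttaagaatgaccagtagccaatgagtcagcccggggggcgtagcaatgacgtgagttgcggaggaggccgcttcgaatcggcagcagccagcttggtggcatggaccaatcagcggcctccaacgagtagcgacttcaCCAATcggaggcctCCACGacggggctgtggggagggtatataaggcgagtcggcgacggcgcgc
Hsp90b1: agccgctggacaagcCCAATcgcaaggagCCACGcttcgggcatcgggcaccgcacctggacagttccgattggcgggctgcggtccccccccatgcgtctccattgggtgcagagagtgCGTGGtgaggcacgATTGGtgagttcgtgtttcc
Calr: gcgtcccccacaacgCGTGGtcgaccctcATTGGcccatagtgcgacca
Canx: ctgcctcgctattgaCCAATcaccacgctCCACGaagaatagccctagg
Creld2: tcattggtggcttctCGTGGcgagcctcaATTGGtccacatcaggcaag

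Genes with the element did not share one difference. Hspa5 (1.52) and Creld2 (1.65) differed most and Calr by 0.87. Hsp90b1, the chaperone GRP94, with a match on each strand, read 15.71, 15.27 and 15.38 with Gipr-/- marrow and 15.4, 15.08, 15.14 and 15.44 with WT marrow (difference 0.19 ± 0.20 SE, adjusted p = 0.717). Canx, calnexin, differed by 0.26 ± 0.23 (SE, adjusted p = 0.654). The groups of these last genes overlapped. A match describes letters and not a bound factor.

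Several of the 30 genes act in secretion or in lysosomes; they were put together, and except Tmed5 named, after their values were seen. Tmed5, a p24 cargo receptor between endoplasmic reticulum and Golgi, rose 3.34-fold. Of 8 tested p24 members, looked up after Tmed5 was seen, it alone passed. Separate groups with Gipr-/- marrow higher were found in 4 of the 8, Tmed5 included, beside 10.2% of all genes. Tmed7 (0.99 ± 0.20 SE) came next at an adjusted p of 0.0561. Alg14, which helps build the glycan of N-glycosylation, rose 3.12-fold. Creg1, a lysosomal glycoprotein, read 13.89, 14.04 and 13.45 with Gipr-/- marrow and 12.5, 12.47, 12.31 and 12.26 with WT marrow. Cpq, a carboxypeptidase of lysosomes and plasma, read 12.7, 12.35 and 12.72 with Gipr-/- marrow and 11.38, 11.2, 11.24 and 11.05 with WT marrow. Both had narrow, separate groups and an adjusted p of 0.0307. Rab9, a GTPase of traffic from late endosomes to the Golgi, was 2.81-fold higher, and Slc48a1, a haem transporter of endosomes and lysosomes, 2.23-fold.

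The remaining higher genes have other roles. Adap2, a GTPase-activating protein for Arf, rose 3.91-fold, and Mocs1, which starts molybdenum cofactor synthesis, 3.16-fold. Fam122b (4.5-fold) and Sowahc (3.23-fold) were also higher, and Fam122b was dim with WT marrow, at a mean of 6.23. Wdr74, of ribosome assembly, Psmd5, a chaperone of proteasome assembly, Slc43a3, a purine base transporter, Pkp4, a plakophilin, and Zfp207, a kinetochore protein, were 2.15-fold to 2.77-fold higher, and these 5 were named after their values were seen.

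All 4 genes past the threshold on the lower side had separate groups. Marcks, a membrane-bound protein kinase C substrate that binds actin, read 13.63, 13.92 and 14.2 with Gipr-/- marrow, against 15.37, 15.73, 15.34 and 15.49 with WT marrow (difference −1.57 ± 0.20 SE, adjusted p = 0.0287). Prrc2a, an RNA-binding protein, read 9.19, 8.32 and 8.65 with Gipr-/- marrow, against 10.28, 10.53, 10.87 and 10.26 with WT marrow (adjusted p = 0.0307). WT array 4, low in muscle genes, lay with the other WT arrays for both. Ptpa, an activator of protein phosphatase 2A, read 10.3, 9.13 and 9.66 with Gipr-/- marrow, against 11.52, 11.96, 12.27 and 11.06 with WT marrow. Zfp703, a transcriptional repressor, read 6.44, 5.75 and 6.23 with Gipr-/- marrow, against 7.8, 8.19, 7.88 and 7.51 with WT marrow. With Gipr-/- marrow Zfp703 was dim, near the array medians of 6.11 to 6.17. Ptpa fell by 2.0 and Zfp703 by 1.71 log2 units, each with an adjusted p of 0.0323, and WT array 4 was the lowest WT array for both. For Prrc2a and Ptpa the WT arrays stood in the order of their muscle means. The part of muscle in this was not tested beyond the fit with the muscle score.

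The 8 genes next by p on the lower side missed the threshold, with adjusted p-values of 0.0512 to 0.0601. Irs1, the docking protein of the insulin receptor, read 6.9, 6.22 and 8.17 with Gipr-/- marrow, against 10.98, 9.26, 10.23 and 9.0 with WT marrow (adjusted p = 0.0561). Its difference of −2.77 was −1.9 against WT array 4. Ppargc1b, a coactivator of mitochondrial genes, read 5.4, 5.82 and 6.48 with Gipr-/- marrow, against 8.26, 7.37, 8.52 and 7.19 with WT marrow (adjusted p = 0.0561). Both genes had separate groups, and Ppargc1b was dim with Gipr-/- marrow, at a mean of 5.9. Prcc (−1.43), Zscan2 (−1.45), Serpina1f (−1.9), Olfr491 (−1.29), S100a1 (−1.8) and Ric1 (−0.94) complete the 8, and Serpina1f and Olfr491 were dim, with group means of 3.65 and 4.04 with Gipr-/- marrow and 5.55 and 5.34 with WT marrow.

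Adipocyte genes as a class lay close to 0. None of the 17 tested mature adipocyte genes passed, and the list median was −0.02. Lep, leptin, read 18.69, 18.73 and 18.29 with Gipr-/- marrow, against 17.18, 18.23, 17.54 and 18.3 with WT marrow, where WT array 4 reached the lowest Gipr-/- array (difference 0.76 ± 0.30 SE, adjusted p = 0.26). Cebpa, a transcription factor of adipocyte differentiation, read 12.53, 12.32 and 13.22 with Gipr-/- marrow and 14.35, 14.09, 13.84 and 13.7 with WT marrow (adjusted p = 0.0819). Pck1, the gatekeeper of glyceroneogenesis, spread widely, at 14.22, 12.28 and 17.32 with Gipr-/- marrow and 17.79, 15.54, 16.61 and 16.55 with WT marrow. In lipogenesis 0 of 18 passed, with a median of 0.03.

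Lipolysis and lipid droplet genes held 0 past the threshold of 15, with a median of −0.08. G0s2, an inhibitor of the lipase ATGL, read 9.81, 7.38 and 11.99 with Gipr-/- marrow, against 13.97, 12.46, 13.53 and 13.47 with WT marrow (difference −3.63 ± 0.84 SE, adjusted p = 0.0763). The groups were separate, but the Gipr-/- arrays spread over more than 4 log2 units. Plin2, a lipid droplet coat protein, read 15.47, 15.85 and 15.25 with Gipr-/- marrow and 14.33, 14.61, 14.14 and 14.95 with WT marrow (adjusted p = 0.0737). Among 20 insulin signalling genes 0 passed, the median was −0.04, and next to Irs1 by p came Gys1, glycogen synthase of muscle and fat, at 11.58, 10.85 and 12.2 with Gipr-/- marrow and 13.15, 12.82, 13.61 and 12.18 with WT marrow (adjusted p = 0.119). Its groups overlapped, since WT array 4 lay just under Gipr-/- array 3.

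Genes of oxidative phosphorylation held 0 past the threshold of 24, with a median of −0.07. The 4 with the smallest p were all lower and separate: Sdhb (−1.12, adjusted p = 0.0651), Cox4i1 (−0.94, 0.075), Ndufs3 (−0.67, 0.142) and Cox5b (−0.75, 0.214). Against WT array 4 they differed by −0.65, −0.70, −0.41 and −0.38, and the list median there was 0.19. Without overlap 4 of the 24 were lower and 0 were higher, beside 5.15% and 10.2% of all genes. At an unadjusted p under 0.05 in limma, 6 were lower and 0 were higher, beside 5.1% and 9.94%. Brown and beige adipocyte genes had a median of −0.85 over 14 tested genes, none past the threshold. Cox7a1, shared with the muscle list, read 7.4, 6.69 and 7.65 with Gipr-/- marrow and 8.46, 10.42, 11.96 and 7.44 with WT marrow, so WT arrays 1 to 3 were high and WT array 4 lay within the Gipr-/- range. Ppargc1a differed by −2.22 ± 0.54 (SE, adjusted p = 0.0856). Ucp1 was among the 25% of genes left out for low values. Fatty acid oxidation genes had a median of 0.23 over 18, with 0 past the threshold.

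Of 17 lipid-associated macrophage genes, which mark macrophages that take up lipid in obese fat, 0 passed. Without overlap 6 were higher and 1 was lower, beside 10.2% and 5.15% of all genes, and the median was 0.70 (0.38 against WT array 4). Lgals3, galectin 3, read 9.31, 10.06 and 9.76 with Gipr-/- marrow, against 6.86, 8.65, 7.4 and 7.72 with WT marrow (adjusted p = 0.0651). Lipa, the lysosomal acid lipase, read 11.59, 11.61 and 11.06 with Gipr-/- marrow, against 10.07, 9.99, 10.09 and 10.79 with WT marrow (adjusted p = 0.0897). Apoe, the apolipoprotein of macrophages and adipocytes, lay the other way, at 17.91, 18.0 and 18.62 with Gipr-/- marrow and 18.96, 18.96, 18.83 and 18.95 with WT marrow (adjusted p = 0.113). The groups of these 3 genes were separate.

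Vascular and stromal lists had medians above 0 with 0 genes past the threshold. Endothelial genes had a median of 0.43 over 13 tested genes. Lyve1, of lymphatic endothelium and some macrophages, read 11.69, 10.6 and 11.62 with Gipr-/- marrow and 9.59, 9.51, 8.23 and 9.6 with WT marrow (adjusted p = 0.0634). Against WT array 4 the endothelial median was 0.14. Adipose progenitor genes had a median of 0.41 over 13, the same against WT array 4. Zfp423, a transcription factor of preadipocytes, had the smallest p of these (1.10 ± 0.29 SE, adjusted p = 0.108).

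Immune lists held no gene past the threshold. The interferon list had 0 of 20 past the threshold and a median of 0.08. Rsad2, an antiviral radical enzyme, had its smallest p, at 9.61, 9.8 and 10.22 with Gipr-/- marrow and 8.55, 8.2, 8.85 and 8.6 with WT marrow (adjusted p = 0.0534). Inflammatory cytokines and chemokines had 0 of 20 past the threshold (median 0.08), MHC class II presentation 0 of 9 (0.12), and type 2 immunity and eosinophils 0 of 9 (0.16). T and NK cell genes had 0 of 13 (−0.37), B and plasma cell genes 0 of 9 (−0.13), and mast cells 0 of 7 (0.06). The T cell, B cell and MHC class II lists were high on DKO arrays 1 and 3, which entered the shared spread. For Cd79a of B cells the SD was 4.23 with DKO marrow, 0.33 with Gipr-/- marrow and 0.84 with WT marrow. The SE of its difference was 1.39, so a call in these 3 lists was hard to reach and its absence says little. The incretin and GIP axis held 0 of 14 with a median of −0.12, and Adcy6, an adenylyl cyclase downstream of such receptors, had its smallest p (−0.90 ± 0.30 SE, adjusted p = 0.19). Over the 38 lists, 2 held a gene past the threshold, and these genes were Ccn2 and Hspa5.

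**Figure D4:**
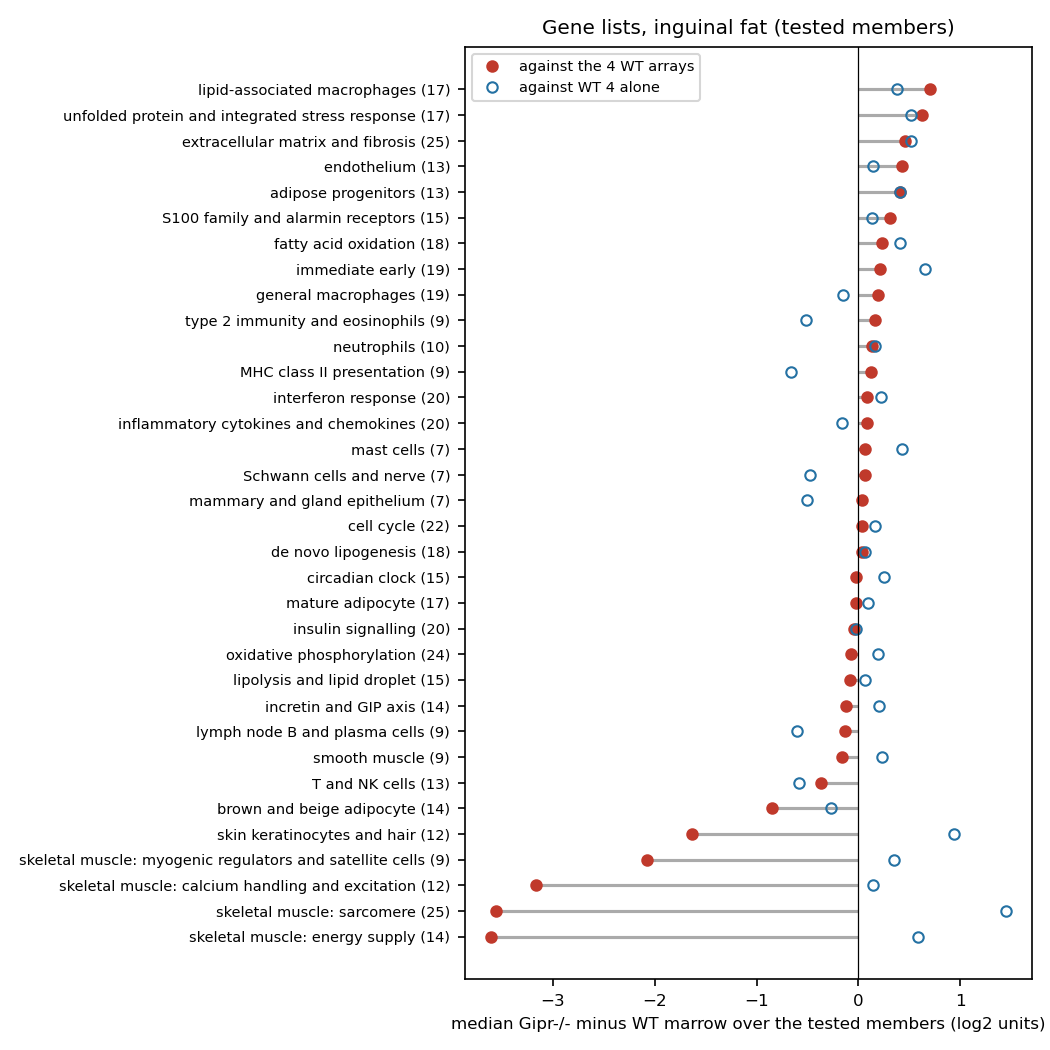
Median difference between Gipr-/- and WT marrow in log2 units over the tested members of each list (members in brackets), against the 4 WT arrays (filled) and against WT array 4 alone (open). The 4 muscle lists lie at −2.07 to −3.61 against the 4 WT arrays and above 0 against WT array 4, while the stress list (0.62 and 0.52) and the matrix list (0.46 and 0.52) move little between them.

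The other lists of tissue neighbours held no gene past the threshold. Smooth muscle genes had a median of −0.16 over 9 tested genes, skin −1.63 over 12, gland epithelium 0.03 over 7, Schwann cells 0.06 over 7, mesothelium −0.37 over 4, lymph node stroma −0.48 over 3, epididymis −0.64 over 3 and red blood cells −0.92 over 2. Lymph node stroma genes, like the T and B cell genes, were high on DKO arrays 1 and 3, which widened their spread in the fit. The cell cycle list (0.03 over 22), circadian clock (−0.02 over 15) and immediate early genes (0.21 over 19) likewise held none.

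With DKO marrow, which lacks S100a9 as well, inguinal fat was compared with Gipr-/- and with WT marrow. Both differences share arrays with the contrast by which the 34 genes were chosen, so their values are given side by side and nothing is read from the counts. DKO minus Gipr-/- had a median of −1.44 over the 30 higher genes, of which 23 passed, beside 3.48% of all genes (505). DKO minus WT had a median of 0.03 over the 30, and 0 of them passed. It had 0 genes past the threshold in limma over all 14502, with 1958 at an unadjusted p under 0.05.

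Oxtr read 7.35, 9.12 and 8.95 with DKO marrow, so the lowest WT array (9.03) lay within the DKO range and the other WT arrays above it. Srgn stood between the groups, at 14.88, 14.3 and 14.6 with DKO marrow, above all 4 WT arrays (DKO minus WT 1.89, adjusted p = 0.0635). Hspa5 read 16.09, 16.96 and 16.95 with DKO marrow (DKO minus WT 0.27, adjusted p = 0.694). Thbs1 read 10.06, 9.2 and 10.54 with DKO marrow, below all WT arrays (DKO minus WT −2.04, adjusted p = 0.136). Muscle genes averaged 7.71, 9.08 and 5.96 on the DKO arrays, and lymph node genes were high on DKO arrays 1 and 3 as given above.

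In epididymal fat the same contrast used other arrays; the sources used here do not say whether they came from the same mice. None of 14502 genes passed there in limma (lowest adjusted p 0.131, 1052 genes at an unadjusted p under 0.05). Of the 30 genes higher in inguinal fat, 15 had a positive difference in epididymal fat, and their median was 0.02. The 4 lower genes were all negative there, with a median of −0.75. Whether the 2 depots differed was tested directly: 0 of 14502 genes passed (limma, lowest adjusted p 0.053, 1153 genes at an unadjusted p under 0.05).

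The gene nearest to a depot difference was Cpq, at 1.37 in inguinal and −0.19 in epididymal fat (inguinal minus epididymal 1.56 ± 0.26 SE, adjusted p = 0.053). Srgn differed by 2.77 in inguinal and −0.54 in epididymal fat (adjusted p of the depot difference 0.531), Ccn2 by 2.34 and −0.15 (0.273), and Ccn3 by 2.09 and −0.25 (0.53). For Oxtr both depots were positive, at 4.75 and 1.2 (0.432), as they were for Itga5, at 1.79 and 1.14 (0.83), and for Hspa5, at 1.52 and 0.71 (0.671). Marcks was negative in both, at −1.57 and −0.72 (0.642). The lipid-associated macrophage list had a median of 0.70 in inguinal and 1.08 in epididymal fat, and the stress list 0.62 and 0.34. The matrix list stood at 0.46 and 0.04.

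**Figure D5:**
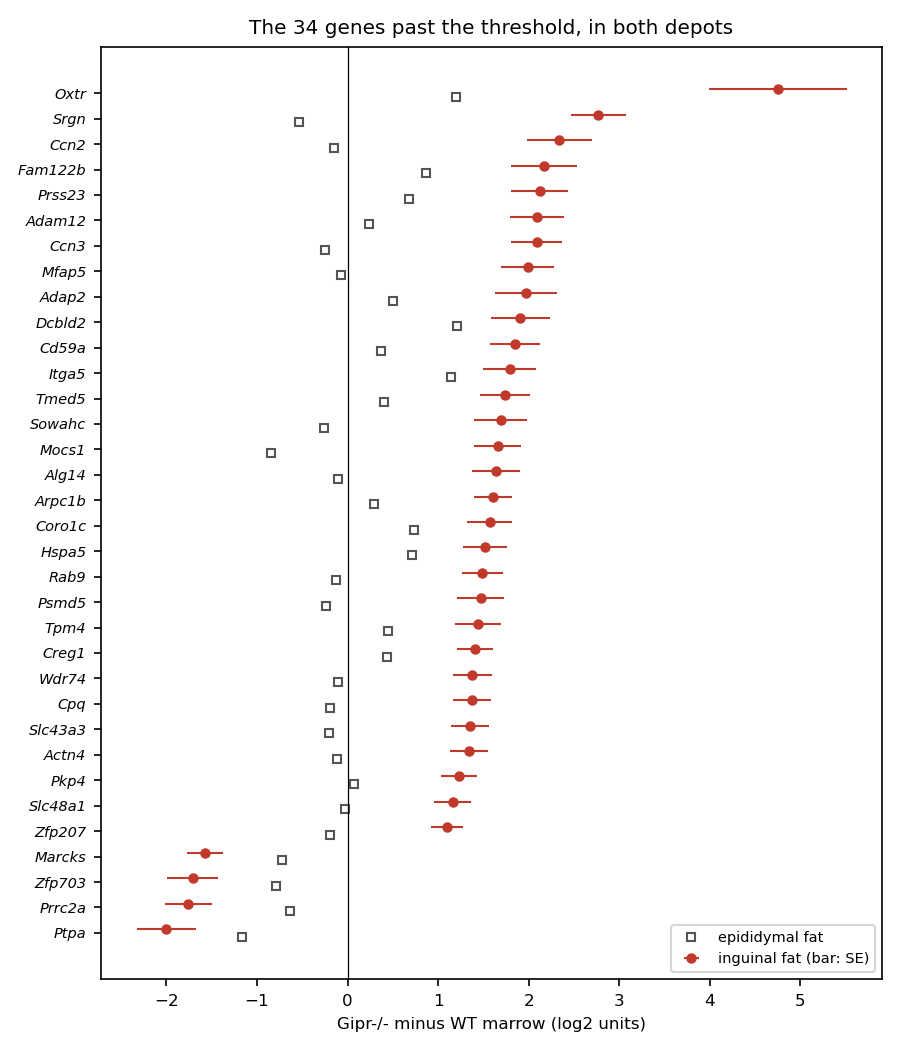
Difference between Gipr-/- and WT marrow in log2 units for the 34 genes past the threshold in inguinal fat (red, with SE) and for the same genes in epididymal fat (open squares). Of the 30 higher genes 15 have squares above 0, the 4 lower genes all have squares below 0, and no depot difference passed the threshold.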

How the data were processed

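Gene expression was measured in fat of marrow chimeras with 1-colour arrays; per the labels' protocols, 100 ng of RNA was labelled. The authors deposited 1 table of 21793 features, taken here as log2 values (1.92 to 19.9); Partek 6.6 is named in the submitters' processing notes, without its role. The platform annotation named 19341 features by 1 gene symbol; the brighter feature of a gene was kept (19337 genes). Groups came from the array titles, and replicates were numbered in accession order, which pairs nothing.

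The 10 inguinal arrays were fitted together in 3 groups with limma 3.58.1 (lmFit, eBayes with a trend, R 4.3.3), without the 25% of genes lowest in mean. Tests were two-sided with Benjamini-Hochberg adjustment over all genes (threshold 0.05). The depot difference came from all 22 arrays in 6 groups. The fit was checked on simulated data. Alternatives changed the filter, the arrays, the variance model, the normalization, the features, a muscle covariate or left out single arrays. A further 3, added after the data were seen, left out WT arrays 1 to 3, left out DKO arrays 1 and 3, or used the title number range as a block.

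Members and the 38 gene lists were chosen with earlier results of these data known. Genes named by rule were Gipr, S100a8, S100a9, Adipoq, Lep and Ucp1, the 15 largest differences past the threshold in each direction (filled to 12 by smallest p), 4 members of each list by p, and muscle genes. The CCN, Arp2/3, p24 and integrin families and the ERSE search were chosen after values were seen.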

Additional observations from a re-analysis of the deposited data

Results flagged for a closer look

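Among 106 genes followed by name, 8 had 1 WT array far from the other 3 by Dixon's ratio, the gap to the nearest array over the whole range, above Dixon's critical value for 4 arrays. Chance alone takes about 1 in 20 groups past it, and groups of 3 arrays were not checked. For 5 genes the array apart was WT array 4: Myh4 was low there at 4.73, against 17.85, 19.03 and 19.56 on WT arrays 1 to 3 (ratio 0.88), and Pdpk1 was low at 9.64, against 10.36 to 10.48 (0.87). On the same array Lipa was high at 10.79, against 9.99 to 10.09 (0.88), and Serpina1f was high at 6.7, against 5.05 to 5.24 (0.88), as was Alas2 at 11.25, against 7.37 to 7.71 (0.91). For 2 genes it was WT array 3, where Lyve1 read 8.23, against 9.51 to 9.6 (0.93), and Apoe 18.83, against 18.95 to 18.96 (0.92). Ccn1 was high on WT array 2 at 15.2, against 13.22 to 13.35 (0.93). None of these 8 genes passed the threshold between Gipr-/- and WT marrow.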

How the results depend on the processing

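The number of genes past the threshold (34) moved with most settings. Gene by gene, 23 settings were followed. In those with more than 1 array in each group, the 34 genes had an unadjusted p under 0.05 in limma. The genes were chosen by low p on arrays that the settings share, so these p-values are no sign of stability. The groups of the 34 genes do not overlap on the arrays by which they were chosen. Leaving arrays out therefore could not turn their direction, which is no sign of stability either. With 50% of genes left out 148 passed (129 higher, 19 lower), with the 7 compared arrays alone 89 (78, 11), with all 22 arrays in 6 groups 97 (78, 19), without a trend 1 (1, 0), with robust eBayes 133 (117, 16), with array weights 401 (324, 77), after quantile normalization 3 (1, 2), after a median shift 112 (105, 7), and with the muscle score as covariate 0 (0, 0). The 3 genes left after quantile normalization are too few to read their split by direction. No filter gave 34 (33 of them the same genes) and all features gave 37. Leaving out 1 array gave 0 to 274 genes (0 to 222 higher, 0 to 52 lower): 0 without Gipr-/- array 1, Gipr-/- array 2 or WT array 1, and 274 without DKO array 2. Of the settings added after the data were seen, leaving out WT arrays 1, 2 and 3 gave 0 (0, 0), leaving out DKO arrays 1 and 3 gave 86 (75, 11), and the title number range as a block gave 0 (0, 0). The depot difference gave 28 genes with array weights and 0 to 2 with 1 array left out. Directions turned for Myh4 (2.53), Acta1 (2.54), Ckm (0.86), Pvalb (0.09) and S100a8 (−0.04) with the muscle covariate; for Gipr (−0.19) and S100a8 (−0.16) without Gipr-/- array 2; for Gipr (−0.13) without WT array 2; for S100a8 (−0.02) without WT array 3; for Lcn5 (0.12) without WT array 4; for S100a8 (−0.08) with the number block; and, without WT arrays 1, 2 and 3, for Myh4 (5.87), Acta1 (4.59), Ckm (1.66), Pvalb (2.51), Krt14 (0.22), Krt5 (0.97) and Canx (−0.02). The muscle score is built from genes that include Myh4, Acta1, Ckm and Pvalb, so their signs with that covariate say nothing on marrow. Without WT arrays 1, 2 and 3 only WT array 4, low in muscle genes, was left. The cause of the other turns was not tested. With 1 array left out in turn, Gipr lay between −0.19 and 0.31, S100a8 between −0.16 and 0.95, and Lcn5 between −1.03 and 0.12. For the 106 genes followed, the planned settings left the side of the threshold and the direction alike in 1638 values, lost a call in 339 and gained one in 122. No paired analysis was made, because the labels name no pairs of arrays and the number in the titles has no stated meaning. Dim genes near the lower end, such as Gipr, S100a8 and S100a9, are limited by signal over background.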
